A study of Mus musculus with 49 samples.

Results

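The transcripts of 9 enzymes that break down aromatic amino acids were followed in mouse hepatocytes that were put into culture, lost hepatocyte character and were then aggregated or grown as organoids. The enzymes were chosen by name, as Tat, Hpd, Hgd and Fah for tyrosine and Tdo2, Afmid, Kmo, Kynu and Haao for tryptophan. All 9 genes had a row with counts among the 46078 gene identifiers of the table. All 9 fell to under 10% of their level in fresh hepatocytes within 1 day of plating. In dedifferentiated hepatocytes (dediHeps), 6 of them had at most 4 counts over 5 libraries, whereas Fah had 10.4% and Afmid 21.7% of the mean fresh level. The share of Afmid rested on 27 counts in fresh hepatocytes and 27 in dediHeps, and that difference was not tested. The 6 enzymes that passed a filter on low counts (Hpd, Hgd, Fah, Tdo2, Kmo and Haao) were higher in aggregates than in dediHeps. Genes near 0 in dediHeps could pass that filter only through the aggregates. The 6 stood at 0.632% to 40.3% of the level in fresh hepatocytes. Tat also lay above every dediHep library but was not tested.

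In the liver, Tat removes the amino group of tyrosine, Hpd and Hgd oxidise and open the ring, and Fah splits the last intermediate into fumarate and acetoacetate. Tryptophan is opened by Tdo2 to formylkynurenine, Afmid releases kynurenine, Kmo hydroxylates it, and Kynu and Haao carry it on towards quinolinate, a source of NAD. Most of these enzymes are typical of mature hepatocytes, and inherited loss of FAH, HPD, TAT or HGD causes disorders of tyrosine metabolism in humans.

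RNA was measured as counts of unique molecular identifiers (UMIs), short random tags that mark each captured transcript, read at the 3′ end of the transcript. There were 49 libraries in 16 conditions, all wild-type C57BL/6J. Hepatocytes came from livers of 10-week-old mice and were measured fresh (FH, 3 libraries) or after monolayer culture for 3 h, 1 day, 2 days, 4 days, 7 days and 14 days (3 libraries each). Hepatocytes kept for 7 days with 0.3 µM verteporfin, a compound used to block the transcriptional activity of Yap, or with its solvent DMSO gave 2 libraries each. The hepatocyte and dediHep monolayers were kept in a medium with 20 ng/mL EGF. Passaged dediHeps grown as a monolayer gave 5 libraries, and dediHeps gathered into aggregates in wells to which cells do not attach gave 3. Of the dediHep cultures named in the labels, 3 also supplied the 3 aggregate libraries, and 3 supplied the 3 libraries of spherical organoids (dediHep-SO). Budding organoids made from dediHeps that carry introduced Cdx2, an intestinal transcription factor (dediHep-BO), gave 3 libraries. CLiPs, progenitor-like cells obtained from hepatocytes with small molecules, gave 3 monolayer libraries, and their medium is not described in the labels. The intestinal controls were spherical organoids of fetal intestinal progenitor cells from E13.5 embryos (FIPC-SO, 3 libraries) and budding organoids of small intestine from 10-week-old mice (ISC-BO, 4 libraries). The study describes its experiments as repeated independently, but the labels do not say which libraries came from separate mice, so that p-values measure the spread between these libraries.

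Libraries held 861047 to 3872936 counts, with a median of 1976760. Levels are given as CPM (counts scaled to a common library size) on 1 scale for all 49 libraries, on which 3 counts correspond to 0.671 to 3.91 CPM, depending on the library. Of 9 hepatocyte markers, 8 were found, and their summed level was 18400 to 27200 CPM in FH, 1640 to 2230 at 14 days, 1050 to 4910 in dediHeps and 9480 to 13800 in aggregates. Albumin had 0 counts in all dediHep-SO, dediHep-BO and FIPC-SO libraries. In the 3 CLiP libraries the hepatocyte sum was 1940, 2130 and 9200 CPM, so that CLiP replicate 3 stood apart. FH replicate 1 had the lowest hepatocyte sum of its group. The macrophage list, with all 8 genes found, summed to 125 to 377 CPM in FH and to 2.39 to 7.49 at 3 h. It did not stay low in culture, with 1.52 to 89.4 CPM at 1 day and 8.01 to 308 CPM at 14 days. In dediHeps it was 0.482 to 10.2 CPM. The part of the cell mixture in the results was not tested, and in bulk RNA fewer cells of a type and less RNA per cell cannot be told apart.

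On GRCm38, with the gene models of GENCODE M21, the tyrosine genes are Tat (chr8:109990437-109999803, plus strand), Hpd (chr5:123171807-123182727, minus strand), Hgd (chr16:37580153-37632020, plus strand) and Fah (chr7:84585159-84606722, minus strand). The tryptophan genes are Tdo2 (chr3:81957090-81976202, minus strand), Afmid (chr11:117825924-117839908, plus strand), Kmo (chr1:175620381-175662116, plus strand), Kynu (chr2:43555329-43682715, plus strand) and Haao (chr17:83831156-83847963, minus strand). The 3′ end of Hpd is covered by Psmd9, on the opposite strand, and by Gm26745, which had 0 counts in all libraries. Afmid overlaps Gm20708, which also had 0 counts in all libraries, and Tk1, on the opposite strand. Whether reads were counted by strand is not given in the sources used here, so that low values of Hpd and Afmid are uncertain. Gm26745 and Gm20708 lie on the same strand as Hpd and Afmid, so that these overlaps hold under either setting.

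RefSeq promoter sequences (GRCm38.p6), from 250 bases before to 50 bases after the start, were present for 8 of the 9 genes. For Fah, Tdo2, Kmo and Haao the RefSeq start lies inside the GENCODE interval given above, farthest inside for Kmo. The CG pairs and motif matches below hold for the RefSeq starts only, and other starts were not examined. The promoters of Fah and Afmid, the 2 genes with the highest share of their fresh level in dediHeps, held 19 and 18 CG pairs, against 2 to 10 in the other 6. Their ratio of observed to expected CG was 0.787 and 0.685, against 0.162 to 0.487 in the other 6 and a median of 0.384 over 32851 promoters. The 2 genes were picked by their level in these data, and a link of CG pairs to expression was not tested. At 2 days of culture Afmid had 1.27% of its FH mean, from 1 count, and Kmo 4.77%. The promoter of Afmid lies within Tk1, a gene on the opposite strand. The 30 bases just before the start are shown 5′ to 3′ for Fah and Afmid and for the 3 genes whose counts were 0 in dediHeps, with CG pairs in capitals.
Fah, chr7:84605943-84605972, minus strand: ggagggaagggtgtggggCGgttcCGgggc
Afmid, chr11:117825889-117825918, plus strand: tCGtcccacctctcagctaCGtgaaaagcc
Tdo2, chr3:81975729-81975758, minus strand: atctgggaaggttgataccattcctgacct
Tat, chr8:109990406-109990435, plus strand: actatttcaagggtcaggacCGcacctgaa
Haao, chr17:83846791-83846820, minus strand: ggccaacaggagactgCGcagatCGcaggt
In these short windows Haao and Hpd held 2 CG pairs each, as many as Fah and Afmid.
CCAAT, searched on both strands in the whole promoter, was found in 3 of the 8 (Tat, Hgd and Tdo2) and in 37.4% of all promoters. TATAAA was found in Hgd and Tdo2 and in 13.6% of all promoters, and GTTAAT in Haao and in 7.1%. These matches are descriptions of the letters and were not tested against expression.

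The first comparison asked how hepatocytes differed after 3 h of plating from FH, which had been isolated as well. Tat, the first enzyme of tyrosine breakdown, had 1305, 61.3 and 101 CPM in the 3 FH libraries and 1392, 2282 and 2425 CPM at 3 h. The 3 h libraries were all above FH, although FH replicate 1 came close to the lowest of them. The log2 fold change was 2.06 ± 0.744 (SE, adjusted p = 0.0774), and without FH replicate 1 it was 4.67 (adjusted p = 2.12e-05). A gene was called changed where the adjusted p was below 0.1 and the log2 fold change beyond 2, the limits used in the study. Tat was the only one of the 9 enzymes called, against 3.06% of the 12443 genes tested that were called higher and 3.85% called lower. The call was lost in several other fits, with an adjusted p of 0.136 when all 49 libraries were fitted together and 0.273 with DESeq2.

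Tdo2, which opens the tryptophan ring, had 2579, 2180 and 2261 CPM in FH and 3372, 3013 and 3700 CPM at 3 h. The groups did not overlap, but the difference of 0.53 ± 0.339 (SE) in log2 did not pass the test (adjusted p = 0.319). The UMI had 6 bases, which caps the count that 1 gene can reach in a library, and Tdo2 counts of 2818 to 3459 at 3 h neared that ceiling. Counts corrected for tags drawn more than once gave a log2 fold change of 0.97 for Tdo2 (adjusted p = 0.104). Kynu, the kynureninase, had 263, 170 and 208 CPM in FH and 320, 426 and 386 CPM at 3 h, again without overlap (log2 fold change 0.83 ± 0.353 SE, adjusted p = 0.128). The other 6 enzymes overlapped between FH and 3 h, with adjusted p of 0.417 to 0.986 by edgeR. The values of all these 6 enzymes in FH replicate 1 were the lowest of their group, whereas those of Tat, Tdo2 and Kynu were the highest.

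**Figure D1:**
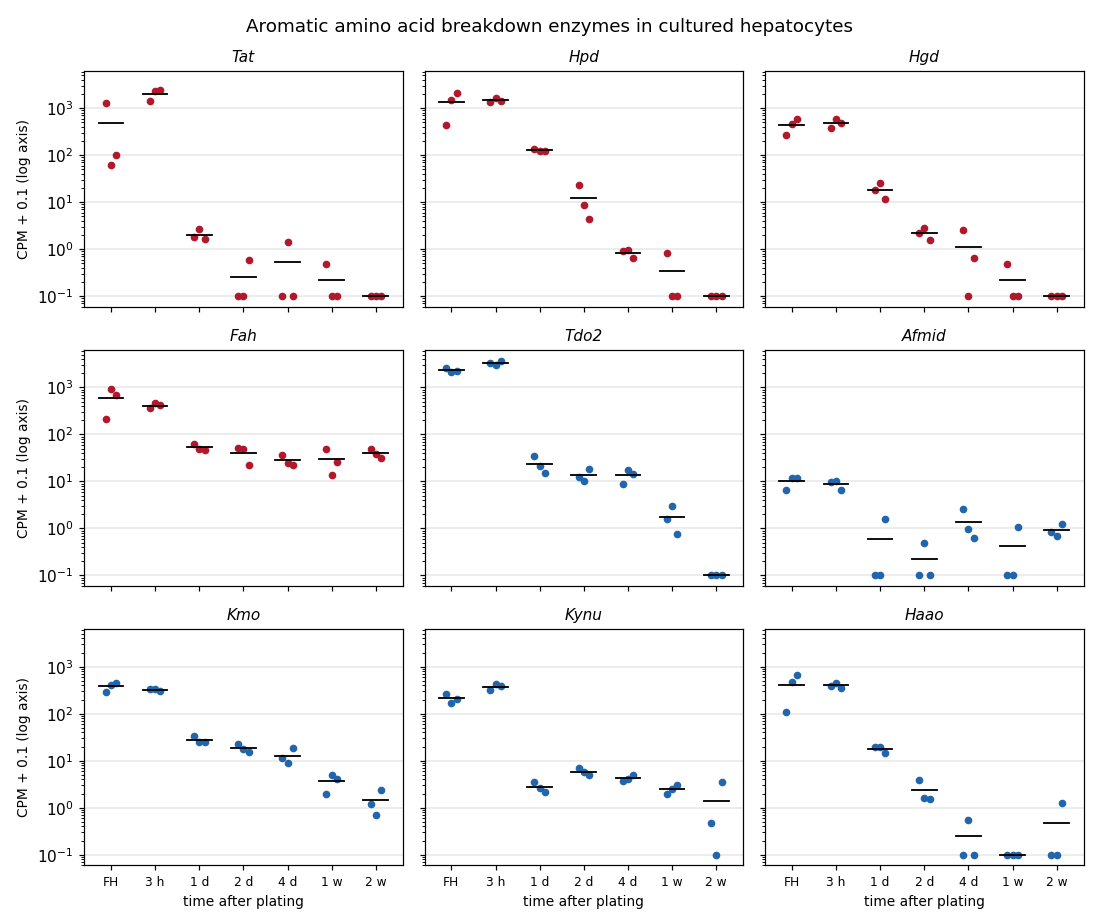
Level of each enzyme (CPM plus 0.1, log10 axis) in fresh hepatocytes and at 6 times of monolayer culture. Points are libraries and short lines mark the group means (n = 3 per time). Every enzyme lies lower at 1 day than in FH, and Fah levels off between 13.9 and 63.2 CPM from 1 day on while Tat, Hpd, Hgd and Tdo2 reach 0 counts at 14 days.

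From 1 day on every enzyme was far below FH. Against FH, 9 of 9 were lower at 1 day, where 10.9% of all genes were called lower. They also were at 2 days (12.1% of all genes), 4 days (12.4%), 7 days (12.8%) and 14 days (15.3%). The comparisons with FH share the same 3 FH libraries. The median log2 fold change of the 9 was −4.70, −6.92, −7.58, −10.63 and −10.74 in turn, beside −0.03, 0.04, 0.10, 0.17 and 0.04 over all genes tested. With genes at 0 counts set to their lower bound, the last 2 medians were −10.25 and −9.73. All 9 genes passed the filter on low counts. The level in FH alone was enough for all but Afmid, which passed only together with the 3 h libraries.

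Among the tyrosine enzymes, Tat was the lowest at 1 day as a share of FH. It had 1.72, 2.54 and 1.52 CPM at 1 day, which was 0.394% of the FH mean, or 2.38% of it without FH replicate 1 (log2 fold change −8.12 ± 1.06 SE, adjusted p = 5.65e-06). Without FH replicate 1 the change was −5.50 (adjusted p = 3.23e-07). From 2 days on it had at most 3 counts in any library, and at 14 days it had 0 in all 3, at least 976-fold below FH, or at least 162-fold without FH replicate 1.

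Hpd, the dioxygenase that acts on hydroxyphenylpyruvate, fell in steps. It had 443, 1481 and 2064 CPM in FH, 1386, 1681 and 1415 CPM at 3 h, and 136, 124 and 125 CPM at 1 day. At 2 days it had 23.3, 8.79 and 4.34 CPM and at 4 days 0.817, 0.872 and 0.535 CPM. None of the libraries of 1 time overlapped with those of the next after 3 h, down to 4 days. The log2 fold change against FH was −3.54 ± 0.521 (SE) at 1 day (adjusted p = 2.49e-05) and the level at 14 days was at least 2620-fold lower.

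Hgd, the homogentisate dioxygenase, took a similar course. It had 263, 463 and 575 CPM in FH, 384, 600 and 479 CPM at 3 h, 18.1, 24.9 and 11.6 CPM at 1 day and 2.12, 2.68 and 1.45 CPM at 2 days. Only 1 count remained at 7 days and none at 14 days. The change at 1 day was −4.73 ± 0.492 (SE, adjusted p = 3.74e-07), and at 14 days the level was at least 850-fold lower than in FH.

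Fah, the last enzyme of the tyrosine route, was lower by 1 day and then stayed in 1 range. It had 213, 926 and 685 CPM in FH, 361, 455 and 416 CPM at 3 h and 63.2, 48.8 and 46.0 CPM at 1 day. At 14 days it still had 49.2, 38.8 and 32.1 CPM, and the 1 day and 14 day libraries overlapped. The log2 fold change against FH was −3.69 ± 0.473 at 1 day (SE, adjusted p = 2.84e-06) and −4.06 ± 0.485 at 14 days (SE, adjusted p = 4.28e-07). Between 1 day and 14 days it was −0.37 ± 0.442 (SE, adjusted p = 0.604), a comparison added after the values were seen. Between those times, at 2 days, 4 days and 7 days, its libraries ranged from 13.9 to 50.9 CPM.

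In the comparison of 14 days with 1 day 5 of the 9 enzymes were lower at 14 days than at 1 day (Hpd, Hgd, Tdo2, Kmo and Haao), against 6.71% of all genes tested. The fall was at least 223-fold for Hpd and at least 41.7-fold for Tdo2. Tat had 12 counts over the 3 libraries at 1 day and 0 at 14 days, a difference that did not pass (adjusted p = 0.168 by edgeR).

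**Figure D2:**
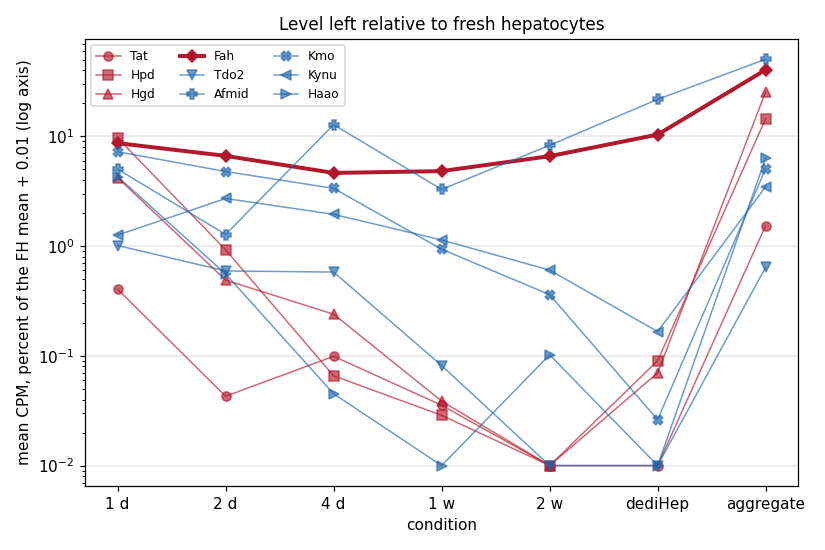
Mean level of each enzyme from 1 day to 14 days of culture, in dediHeps and in aggregates, as a percentage of its mean in fresh hepatocytes (plus 0.01, log10 axis). Fah stays between 4.63% and 10.4% from 1 day to 14 days and in dediHeps, and reaches 40.3% in aggregates (30.5% without FH replicate 1). Tat and Tdo2 are at 0 in dediHeps and at 1.53% (9.21% without FH replicate 1) and 0.632% in aggregates.

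Of the tryptophan enzymes, Tdo2 and Kynu were nearest to 0 at 1 day as a share of FH. Tdo2 went from 3372, 3013 and 3700 CPM at 3 h to 34.8, 20.8 and 14.7 CPM at 1 day. It was then at 1.00% of the FH mean (−6.80 ± 0.44 SE, adjusted p = 1.8e-09). It then stayed at 8.58 to 18.3 CPM at 2 days and 4 days, was at 0.660 to 2.87 CPM at 7 days and had 0 counts at 14 days, at least 4570-fold below FH.

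Kynu had 3.44, 2.54 and 2.02 CPM at 1 day (−6.44 ± 0.477 SE against FH, adjusted p = 2.74e-09) and 6.79, 5.73 and 4.82 CPM at 2 days. All 3 libraries at 2 days were above those at 1 day, a difference that was not tested. At 14 days it had 0.376, 0 and 3.43 CPM, from 4 counts in all.

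Kmo, the kynurenine monooxygenase, was lower at each later time. It had 289, 410 and 447 CPM in FH and 339, 339 and 297 CPM at 3 h. At 1 day it had 33.1, 24.4 and 25.3 CPM (−3.95 ± 0.358 SE, adjusted p = 3.04e-08). The levels were 14.9 to 22.5 CPM at 2 days, 8.72 to 18.2 at 4 days, 1.87 to 4.78 at 7 days and 0.607 to 2.29 at 14 days, where the change was −8.42 ± 0.495 (SE, adjusted p = 7.63e-12).

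Haao, which oxidises hydroxyanthranilate, had 111, 480 and 651 CPM in FH and 389, 451 and 357 CPM at 3 h. It had 19.4, 19.3 and 14.7 CPM at 1 day (−4.70 ± 0.55 SE, adjusted p = 1.61e-06) and 3.82, 1.53 and 1.45 CPM at 2 days. From 4 days to 14 days it had 2 counts in the 9 libraries together. Afmid, the formamidase, was low throughout, with 6.53, 11.7 and 11.97 CPM in FH and 27 counts over those 3 libraries. It had 3 counts at 1 day and 4 at 14 days, where its log2 fold change was −3.73 ± 0.909 (SE, adjusted p = 0.0018), and none of the 14 day libraries reached the FH range.

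A further 66 genes in 6 lists covered the neighbouring steps, the transporters and other hepatic amino acid breakdown. At 3 h, 58 of them could be tested, and Ddc, the aromatic amino acid decarboxylase, was lower (−2.04, adjusted p = 0.00578) and Sds, the serine dehydratase, higher (3.47, adjusted p = 0.0075). At 1 day 32 of 58 were lower and 4 higher, and at 14 days 42 were lower and 2 higher. Of all genes, 10.9% were lower and 6.57% higher at 1 day, and 15.3% lower and 14.1% higher at 14 days, so that the few higher genes of these lists were near or under the share of all genes. Gstz1, which acts between Hgd and Fah, changed by −3.39, and Aldh8a1 and Aadat of the kynurenine route by −6.07 and −5.62. Of the 20 genes for the breakdown of other amino acids, 17 were lower at 1 day, among them Hal, the histidine ammonia-lyase (−7.99, adjusted p = 9.22e-09). The 4 higher genes were Wars, which charges tRNA with tryptophan (2.14), and the transporter genes Slc3a2 (2.46), Slc7a5 (2.83) and Slc6a19, which had 0 counts in FH and was at least 19.0-fold higher.

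The next comparison asked how far passaged dediHeps had departed from FH. Tat, Tdo2 and Haao had 0 counts in all 5 dediHep libraries, at least 2250-fold, 10500-fold and 1880-fold below FH. For Tat the bound was 368-fold without FH replicate 1. Kmo had 1 count, Hgd 3 and Kynu 4 over the 5 libraries. Hpd had 0, 0.508, 0, 0 and 4.82 CPM, so that 10 of its 11 counts came from dediHep replicate 5. No library of these 7 genes came near the FH range.

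Fah in dediHeps had 14.2, 45.8, 64.8, 74.5 and 116 CPM, all below the lowest FH library at 213 CPM. Its log2 fold change was −3.49 ± 0.584 (SE, adjusted p = 0.000717). The mean was 10.4% of the FH mean, or 7.82% without FH replicate 1. Afmid had 0, 1.53, 2.78, 3.26 and 3.38 CPM and was below FH in all 5 libraries, but did not pass the filter and was not tested. The 8 genes tested were all lower, where 12.6% of all genes were, but those at or near 0 in dediHeps passed the filter only through FH and had to be lower. Among the 66 other genes, 38 of 57 tested were lower and 4 higher, beside 12.6% and 13.1% of all genes, so that the higher ones were no more frequent than elsewhere. Cdo1 and Aldh8a1 were at 0 counts. The higher ones were Slc7a5 (4.17), Wars (2.81), Slc3a2 (2.32) and Maoa (2.15), the last an oxidase of aromatic amines.

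The third comparison asked what aggregation did to dediHeps. Of the 9 enzymes 6 passed the filter and 6 were higher in aggregates, where 4.39% of all genes tested were called higher. Genes near 0 in dediHeps could pass only through the aggregates and then had to differ, so that this count supports nothing on its own. The comparison shares the 5 dediHep libraries with those of CLiPs and of dediHep-SO.

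Hpd had 261, 86.0 and 230 CPM in the aggregates, against at most 4.82 CPM in dediHeps (log2 fold change 7.57 ± 0.939 SE, adjusted p = 0.000907). Hgd had 122, 71.3 and 138 CPM against at most 0.508 CPM, with 591 counts against 3, a ratio of 420 with a 95% counting interval of 143 to 2040. All aggregate libraries of both genes were far above every dediHep library.

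Fah had 222, 272 and 242 CPM in the aggregates, above the highest dediHep library at 116 CPM. Its change was smaller, 2.01 ± 0.478 (SE, adjusted p = 0.0216), and just past the fold limit. It was 1.75 without dediHep replicate 1, and with the shared culture as a block it was 2.73 (adjusted p = 0.00531). In the culture labelled c151111, Fah went from 14.2 to 222 CPM, in c161020 from 45.8 to 272 CPM and in SY150924 from 74.5 to 242 CPM.

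**Figure D3:**
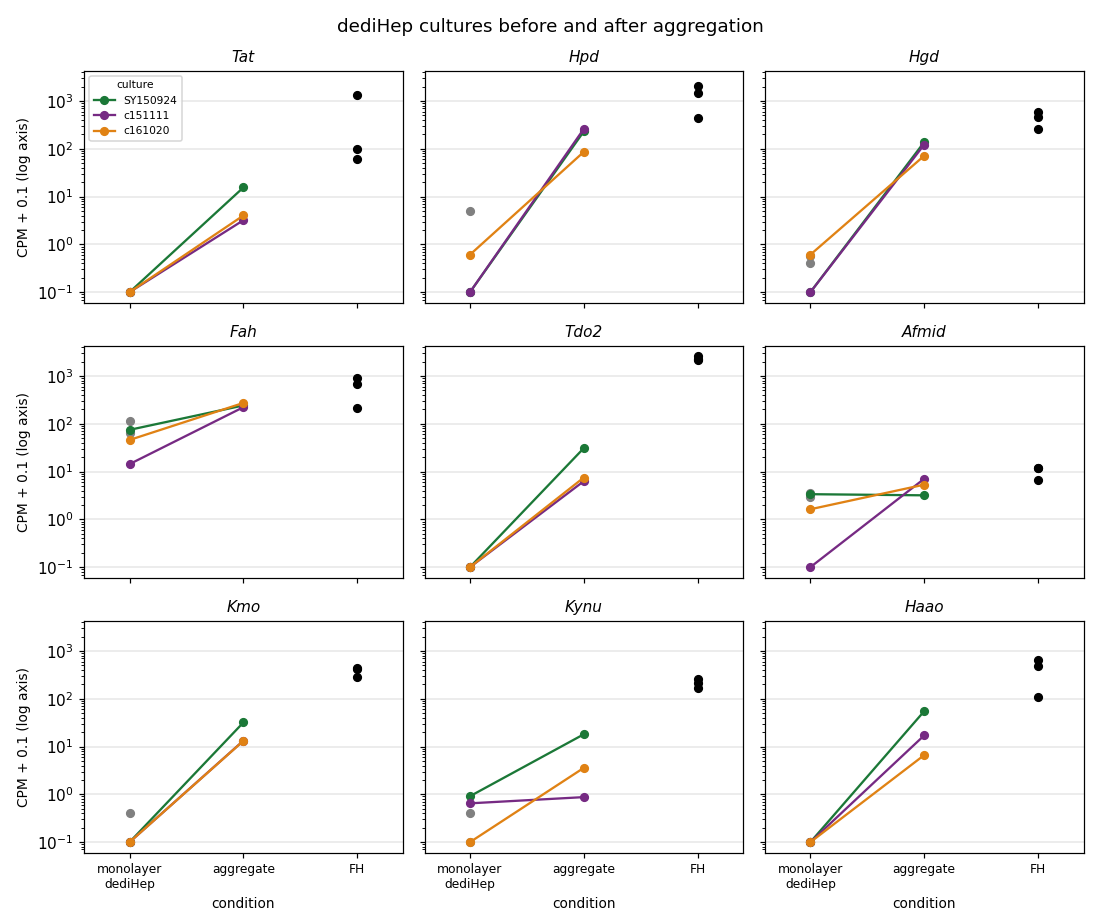
Level of each enzyme (CPM plus 0.1, log10 axis) in dediHep monolayers (n = 5) and aggregates (n = 3), with fresh hepatocytes (n = 3) for reference. Points are libraries, and lines join monolayer and aggregate of the same named culture. Hpd, Hgd and Fah rise to between 71.3 and 272 CPM in aggregates, and Tat and the tryptophan enzymes stay at or below 54.9 CPM.

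Tdo2, Haao and Kmo of the tryptophan route were higher as well. Tdo2 had 6.19, 7.39 and 30.8 CPM in aggregates, at least 60.4-fold above dediHeps (adjusted p = 0.00639 by edgeR). Haao had 17.0, 6.52 and 54.9 CPM, at least 102-fold above (adjusted p = 0.00566). Kmo had 13.2, 13.0 and 31.8 CPM (7.12 ± 0.734 SE, adjusted p = 0.000362).

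Aggregate replicate 3, from culture SY150924, was the highest of the 3 for Tat, Hgd, Tdo2, Kmo, Kynu and Haao. Tat had 3.09, 3.91 and 15.4 CPM, at least 30.5-fold above dediHeps, and lay above every dediHep library. Kynu had 0.773, 3.48 and 18.0 CPM, the lowest of which was below the highest dediHep library at 0.814 CPM. Neither passed the filter, and neither was tested. Afmid had 6.96, 5.22 and 3.08 CPM and overlapped with dediHeps. In the fit with the culture as a block, the same 6 genes were called.

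Against FH, aggregates were lower in 7 of the 8 enzymes tested (Tat, Hpd, Hgd, Tdo2, Kmo, Kynu and Haao), where 9.78% of all genes were called lower. The level in FH alone was enough for the filter, so that this count supports nothing on its own. The largest of the 7 changes were −7.47 ± 0.66 for Tdo2 (SE, adjusted p = 2.45e-05) and −6.24 ± 1.24 for Tat (SE, adjusted p = 0.00367). Without FH replicate 1 the change of Tat was −3.54 (adjusted p = 0.00371). The smallest was −2.12 ± 0.408 for Hgd (SE, adjusted p = 0.00308). Fah, at −1.45 ± 0.469 (SE, adjusted p = 0.0419), overlapped with FH, whose replicate 1 lay below all 3 aggregates, and did not pass the fold limit. As shares of the FH mean, the aggregates had 40.3% for Fah, 25.5% for Hgd and 14.5% for Hpd, and 6.31% or less for Haao, Kmo, Kynu, Tat and Tdo2. Afmid, which was not tested, had 50.45%, from 27 counts in the aggregates and 27 in FH. Without FH replicate 1 the shares were 30.5% for Fah, 21.3% for Hgd and 10.85% for Hpd. The share of Tat then went from 1.53% to 9.21%, close to that of Hpd.

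Of the other 66 genes, 17 of 50 tested rose on aggregation, beside 4.39% of all genes, and here too genes at 0 in dediHeps passed the filter only through the aggregates. Gstz1 went from a mean of 35.26 to 364.4 CPM (3.37, adjusted p = 0.00606). In the kynurenine route 6 of 11 tested were higher, among them Aldh8a1, at least 232-fold, and Qprt, which makes the NAD precursor from quinolinate (5.61, adjusted p = 0.00533). In the list of other amino acid breakdown 8 of 17 were higher, including Agxt2 (6.98) and Hal (4.88). The summed hepatocyte markers also moved, from 1050 to 4910 CPM in dediHeps to 9480 to 13800 CPM in aggregates, and the 5 cholangiocyte markers from 1020 to 1640 CPM to 295 to 551 CPM. Their part in these changes was not tested.

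CLiPs were compared with dediHeps, both being cultured cells derived from hepatocytes. Fah had 11.8, 9.17 and 179 CPM in CLiPs, the third of which was above every dediHep library and the others below all 5. It was the only enzyme that passed the filter, at 0.05 ± 0.915 (SE, adjusted p = 0.987), and without CLiP replicate 3 it was −2.62 (adjusted p = 0.124). It was not called by edgeR, and DESeq2 tested 7 enzymes and called 0, against 1.39% of all genes called lower and 1.65% called higher. CLiP replicate 3 also held most counts of 7 other enzymes, among them all 4 of Kmo and all 6 of Kynu, with 15.6 CPM of Hgd, 25.4 CPM of Haao, 9.27 CPM of Tdo2, 7.32 CPM of Tat and 6.83 CPM of Hpd. In the other 2 CLiP libraries these 7 genes were at 0 to 0.671 CPM. That library was also the one with the highest hepatocyte marker sum, whose part in these values was not tested.

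In the organoids most of the enzymes were at or near 0 counts. In dediHep-SO, only Fah (11.97, 7.03 and 2.26 CPM) and Afmid (1.00 to 1.89 CPM) were detected. Fah was lower than in dediHeps, without overlap (−3.07 ± 0.701 SE, adjusted p = 0.0169), against 4.65% of all genes called lower and 4.12% called higher. It was the only enzyme tested, and its level in dediHeps alone was enough for the filter. With the shared culture as a block the change was −2.54 and did not pass (adjusted p = 0.12). Against FIPC-SO, none of the 9 passed the filter, so that edgeR tested none, and DESeq2, with its own filter, called 2. Of all genes, 3.99% of all genes were called lower and 4.92% higher. Fah had 57 counts in dediHep-SO and 7 in FIPC-SO (0.773, 0 and 1.62 CPM), and the libraries did not overlap. Hpd was at 0 counts in dediHep-SO and at 6.57, 0.723 and 2.26 CPM in FIPC-SO.

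In budding organoids Hpd was detected in every library, at 5.01, 6.05 and 12.1 CPM in dediHep-BO and at 7.31, 14.0, 3.92 and 1.82 CPM in ISC-BO. The groups overlapped, and the change was 0.24 ± 0.591 (SE, adjusted p = 0.836). It was the only enzyme that passed the filter, and 1.71% of all genes were called lower and 1.34% higher. Psmd9, which covers the 3′ end of Hpd on the other strand, was at 10.0 to 14.3 CPM in dediHep-BO and 8.27 to 33.4 CPM in ISC-BO, so that Hpd at these levels is uncertain. Psmd9 was also at 12.7 to 30.6 CPM in dediHep-SO, where Hpd had 0 counts. Fah had 2.00, 1.30 and 2.59 CPM in dediHep-BO and 0, 0.423, 0.435 and 0.456 CPM in ISC-BO, without overlap. That is 13 counts against 3, a ratio of 5.84 with a 95% counting interval of 1.61 to 32.0.

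Of the 66 other genes, 10 of 43 tested were lower in dediHep-SO than in dediHeps, where 4.65% of all genes were, with Maob (−6.81) and Gldc (−5.97) among them. Against FIPC-SO, Kyat3 (−4.60), Cth (−5.91) and Cdo1 (−4.11) were lower, and in dediHep-BO against ISC-BO Tph1 (−2.42) and Cdo1 (−4.87) were.

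Verteporfin was compared with DMSO at 7 days, with 2 libraries each. Tdo2 had 5.68 and 6.68 CPM with DMSO and 8.34 and 15.6 CPM with verteporfin. The pairs did not overlap, but the change of 0.93 ± 0.481 (SE) did not pass the test (adjusted p = 0.603). Fah had 34.1 and 20.0 CPM with DMSO and 41.1 and 19.3 CPM with verteporfin (0.16 ± 0.438 SE, adjusted p = 0.947). Kmo (0.14 ± 0.678 SE) and Kynu (−0.35 ± 0.592 SE) overlapped as well. None of the 4 enzymes tested by edgeR was called and 0 had an unadjusted p below 0.05, while DESeq2 tested 1 and called 0, beside 0.0288% of all genes called lower and 0.24% called higher. Tat had 1.28 and 16.8 CPM with verteporfin and 0.631 and 2.23 CPM with DMSO, and was not tested. Of the 66 other genes only Ddc was called, higher with verteporfin (2.09, adjusted p = 0.0382).

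**Figure D4:**
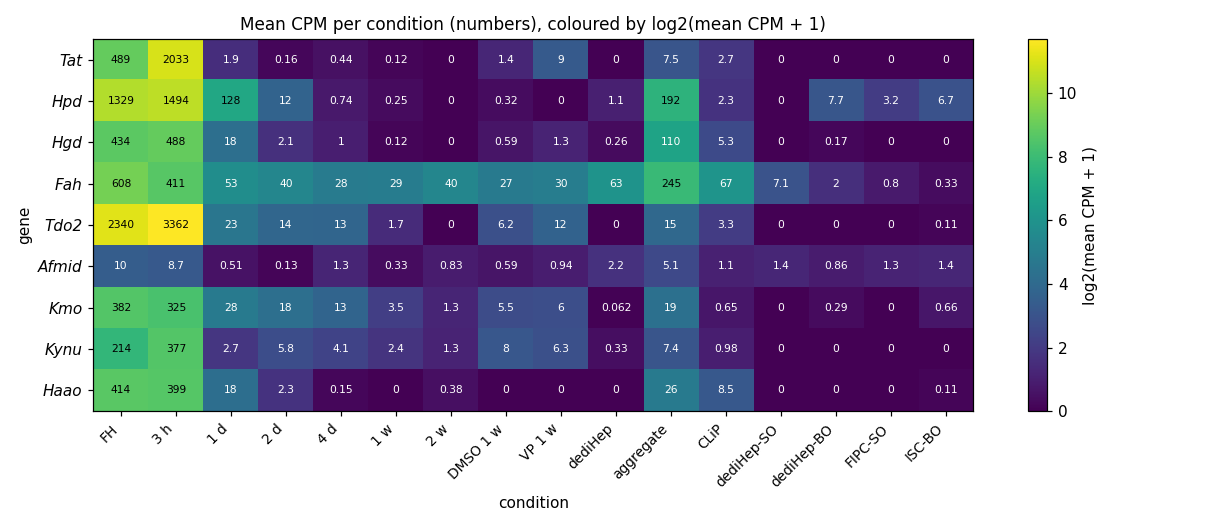
Mean level of the 9 enzymes in the 16 conditions, coloured by log2 of CPM plus 1, with the mean CPM printed in each cell. All 9 are highest in FH or at 3 h, and in the organoids Fah, Hpd and Afmid make up nearly all that was counted.

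Across the 16 conditions, the enzymes were most alike in pairs. Over the condition means of log2(CPM + 1), Pearson's r was 0.979 for Haao and Hgd, 0.971 for Kynu and Tdo2 and 0.969 for Kmo and Tdo2. The lowest values were 0.588 for Afmid and Fah and 0.589 for Fah and Hpd. These describe 16 means that mostly come from hepatocyte cultures and share the difference between FH, 3 h and the rest. Among 14278 genes outside the enzymes, the closest by the same measure was Saa4 for Hgd (0.994), Slc10a1 for Haao (0.989), Cyp2d41-ps for Hpd (0.988) and Necab1 for Tdo2 (0.981). For Kmo and Kynu it was Ido2 (0.975 and 0.973), for Fah Serpind1 (0.970) and for Afmid Chrna2 (0.933).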

How the data were processed

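Libraries were made by CEL-Seq2. The authors deposited raw UMI counts per Ensembl gene, after bcl2fastq 2.20, Bowtie2 2.3.1 on GRCm38 and HTSeq 0.6.0 per the submitters' processing notes. The annotation release is not given in the sources used here. Gene symbols were taken from GENCODE M21, which paired 45143 of 46078 identifiers. Counts were fitted with edgeR 4.0.16 (R 4.3.3), with TMM scaling, filterByExpr and the quasi-likelihood F-test. The SE printed is the absolute log2 fold change divided by the square root of the F statistic. It was derived from the test and is a rough guide where a group is near 0 counts. The time course was 1 fit of 7 groups, and each other comparison used its 2 groups. Calls needed a Benjamini-Hochberg adjusted p below 0.1 and an absolute log2 fold change over 2. Levels are CPM with TMM factors over 49 libraries. A fold against a group at 0 was set against 3 counts over the group, and intervals cover counting error only. The fit was tested on simulated data. The enzymes and gene lists were chosen with earlier results of these data known. All 9 enzymes were named, with at most 2 called genes per list and direction, those of counts up to 5, and the most alike gene of each enzyme, apart from items that are not reported here. Further lists of cholangiocyte, other leukocyte, endothelial, stellate and intestinal markers were summed. Cholangiocyte genes gave 17.0 to 103 CPM in FH and 1020 to 1640 in dediHeps. The culture names pair aggregates with dediHeps, and deviations of the pairs correlated at 0.183 to 0.342.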

Additional observations from a re-analysis of the deposited data

Results flagged for a closer look

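Among 12 combinations of an enzyme and a condition with 4 or 5 libraries, 5 held a library far from the others of its group by Dixon's criterion. Chance passes it in about 5% of groups of continuous values, a rate that does not apply where most libraries tie at 0. In dediHeps, Hpd was at 4.82 CPM in replicate 5, from 10 counts, beside at most 0.508 CPM in the others. Kmo was at 0.309 CPM in dediHep replicate 3 and at 0 in the other 4. In ISC-BO, Fah was at 0 in replicate 1, Haao at 0.456 CPM in replicate 4 and Tdo2 at 0.423 CPM in replicate 2. Kmo, Haao and Tdo2 had 1 count each beside libraries at 0, and Fah had 0 beside libraries with 1, so that in these 4 cases a single count decided.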

How the results depend on the processing

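The count of 9 enzymes lower than in FH held at every time from 1 day on under the alternatives run, except that with counts corrected for tags drawn more than once Afmid was not tested and 8 of 8 were lower. Over the alternatives, 8 to 9 enzymes were lower in dediHeps than in FH, 5 to 8 higher in aggregates than in dediHeps and 6 to 8 lower in aggregates than in FH. The 1 enzyme called at 3 h became 0 with all 49 libraries in 1 fit, an adjusted p below 0.05, library totals, a block by description number, or DESeq2, and 0 to 1 with 1 library left out (0 without FH replicate 2 or 3 or 3 h replicate 2 or 3). For CLiPs against dediHeps, 0 became 2 without a filter and 4 with all 49 libraries. For dediHep-SO against FIPC-SO, 0 became 2 without a filter, with a filter of 0.5 CPM, with all 49 libraries and with DESeq2, and 0 to 1 with 1 library left out. For verteporfin, 0 became 1 without a filter or with that of 0.5 CPM, and 0 to 1 with 1 library left out (1 without verteporfin replicate 1). The causes were not tested. In paired fits, the enzyme called for dediHep-SO against dediHeps became 0 with a replicate block by title number (Fah −2.49, adjusted p = 0.139) or by culture name (−2.54, adjusted p = 0.12). The block changed no other call but that of Tat at 3 h (adjusted p = 0.179 by description number) and Tat between 14 days and 1 day (adjusted p = 0.0723). Title numbers at 3 h against FH did not pair libraries (correlations −0.236 to −0.00439).

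Signs turned only for differences not called. Haao at 3 h against FH became 0.01 with RLE scaling and with DESeq2, 0.03 with the 0.5 CPM filter and 0.06 with a block by title number, and lay between −0.49 and 0.44 over all alternatives. It was 0.09 without FH replicate 2, 0.44 without FH replicate 3 and 0.02 without 3 h replicate 3. Hgd at 3 h became −0.08 with a block by description number, and with 1 library left out it lay between −0.07 (without FH replicate 1) and 0.43, as Hpd did between −0.23 (without that library) and 0.64. Fah in CLiPs against dediHeps became −0.01 with all 49 libraries, −0.17 with library totals and −0.40 with a block by title number. It was −0.21 without dediHep replicate 1, −0.05 without dediHep replicate 2 and −2.62 without CLiP replicate 3, and at most 0.57. Hpd in dediHep-BO against ISC-BO became −0.02 with a block by title number, −0.23 without dediHep-BO replicate 3, −0.08 without ISC-BO replicate 4 and at most 0.92. With verteporfin, Fah was −0.52 and Kmo −0.35 and Kynu 0.28 without verteporfin replicate 1, and Fah −0.21 and Kmo −0.58 without DMSO replicate 2. With each of its 4 libraries left out, Fah reached 0.63, Kmo 1.42 and Kynu −1.59. Fah in aggregates against dediHeps dropped below the fold limit with library totals (1.79), which moved the median of all genes by −0.22 to 0.88 over the comparisons, and without dediHep replicate 1 (1.75), dediHep replicate 2 (1.91) or aggregate replicate 2 (1.96). Hgd in aggregates against FH was −1.46 with library totals, −1.91 without FH replicate 3 and −1.80 without aggregate replicate 2. Library totals and the comparison of 14 days with 1 day were added after seeing the data. Counts under 3 in a library set no level for Afmid, Tat or Haao late in culture.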
